A study of Mus musculus with 4 samples.

Results

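The 7 genes described here write, copy and remove DNA methylation in mammalian cells. They are the DNA methyltransferase genes Dnmt1, Dnmt3a and Dnmt3b, the gene of the adaptor protein Uhrf1, and the dioxygenase genes Tet1, Tet2 and Tet3. The genes were chosen by name and function and not by their values, though with earlier results of these data known. Every probe set whose platform annotation names only 1 of them was taken, which gave 19 of the 45037 probe sets that are not controls. Each gene was represented by its probe set of highest mean intensity, so that the 7 genes are 7 of 18193. The arrays compare N-myc high with N-myc low haematopoietic stem cells (HSCs), and the question for these genes is whether the methylation machinery differs in RNA level between the fractions.

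Both fractions came from the bone marrow of transgenic mice that carry a fusion of N-myc with the red fluorescent protein mCherry, so N-myc high and N-myc low cells share the transgene. The sources used here do not give the promoter behind the fusion, the strain or the age of the mice. Cells of the phenotype Lin-Sca+Kit+CD48-CD150+ were sorted by mCherry and lysed uncultured and untreated. The labels name a mouse 1 and a mouse 2 for each fraction, so there are 2 arrays of N-myc high and 2 arrays of N-myc low cells.

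In mammals, Dnmt1 copies methyl groups onto the new DNA strand behind the replication fork, and Uhrf1 binds the half-methylated DNA left by replication and brings Dnmt1 to it. Dnmt3a and Dnmt3b set methyl groups on DNA that carries none. The Tet enzymes oxidise 5-methylcytosine to 5-hydroxymethylcytosine and further, which opens a route back to unmodified cytosine. In the blood system Dnmt3a and Tet2 are known for their role in HSC self-renewal and differentiation, and both are often mutated in human clonal haematopoiesis.

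For none of the 7 genes was a difference between the N-myc high and the N-myc low fraction detectable beyond the spread between arrays. The differences (N-myc high minus N-myc low, on the log2 scale) ran from -0.51 for Tet3 to 0.09 for Dnmt3a, and 6 of the 7 were below 0. In RNA of bulk cells, fewer cells that express a gene and less of its RNA per cell cannot be told apart. For 5 genes (Dnmt1, Uhrf1, Dnmt3a, Dnmt3b and Tet1) the difference was above 0 in mouse 1 and below 0 in mouse 2, for Tet2 it was the other way round, and Tet3 alone, 1 of the 7, was lower in N-myc high in both mice, as 29.7% of all genes were.

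In limma, 0 of the 7 genes passed a Benjamini-Hochberg adjusted p under 0.05, with adjusted p from 0.826 to 0.995, and 0 of 18193 genes passed (0%). At an unadjusted p under 0.05 the count was again 0 of 7, against 6.31% of all genes, and the lowest unadjusted limma p was 0.193. The groups overlapped for all 7 genes, while 36.4% of all genes had groups that did not overlap. The median difference of the 7 genes was -0.09, against -0.03 over all genes, and the median size of the difference regardless of sign was 0.09 against 0.21. For a single gene, exact permutation of 2 against 2 arrays gives at best a two-sided p of 0.333, so each p rests on the spread that limma pools over genes. The p-values measure only the spread between these samples, which may in part be technical.

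**Figure D1:**
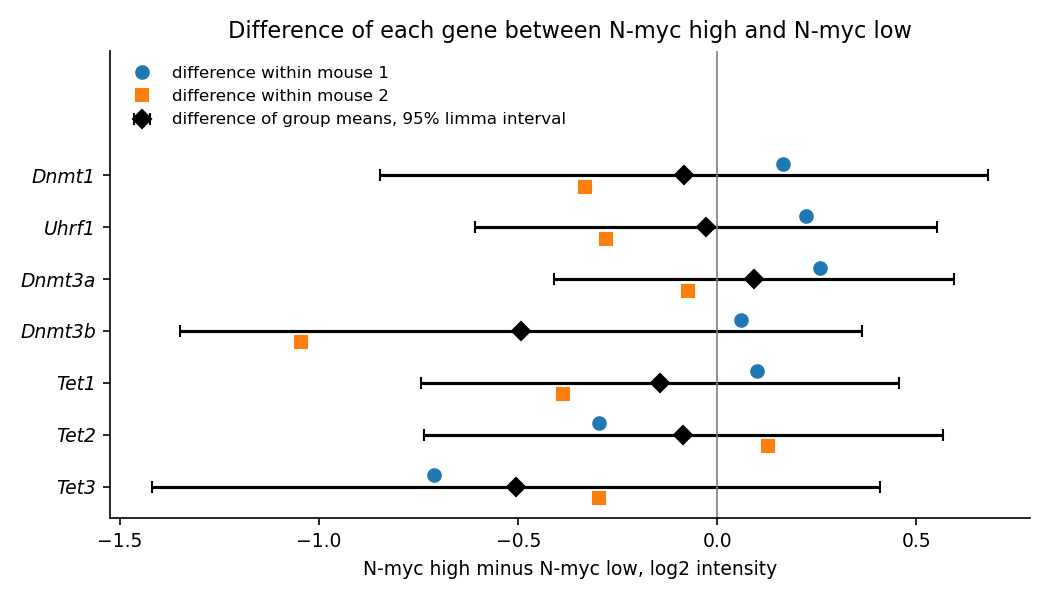
Difference of each gene between the N-myc high and N-myc low fractions in log2 intensity (horizontal axis), for the probe set that stands for the gene. Diamonds are differences of the group means with the 95% interval of the limma fit, circles and squares the differences within mouse 1 and mouse 2; every interval includes 0, and Tet3 alone has both mice on the same side.

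The deposited values are log2 intensities after RMA, and ran from 1.60 to 14.6 over all probe sets, with array medians of 5.26 and 5.28 in N-myc high, against 5.32 and 5.27 in N-myc low. All 19 probe sets of the 7 genes had means above the median of all probe sets (5.29). Mycn, the gene behind the sort, was at 10.48 and 10.39 in N-myc high, against 9.44 and 9.65 in N-myc low (mouse 1 and 2). Of 8 HSC marker genes 6 were measured and all lay above the gene median of 6.22; their mean level was 9.28 and 9.58 in N-myc high, against 8.69 and 8.62 in N-myc low. Of the T and NK cell and the B cell markers, 3 measured genes each, none lay above that median, while all 4 measured granulocyte markers did, with S100a8 at 13.2 to 13.4 in every array. In both mice, 4 of the 6 HSC markers and 4 of the 5 macrophage markers were higher in N-myc high. All 4 granulocyte markers, all 3 measured erythroid markers and 3 of the 4 multipotent progenitor markers were lower in both mice. Of all genes, 23.2% were higher and 29.7% lower in both mice. Of the HSC markers, Slamf1 had opposite signs in the mice and Kit was lower in both. Some differences were small, with S100a8 and S100a9 at -0.13 each and the erythroid Epor at -0.001 in mouse 2. The macrophage list averaged 5.85 and 5.81 in N-myc high, against 5.19 and 4.33 in N-myc low, and the granulocyte list 11.86 and 11.66 in N-myc high, against 12.12 and 12.26 in N-myc low. The erythroid list averaged 7.19 and 6.72 in N-myc high, against 7.80 and 7.43 in N-myc low, and the progenitor list 8.68 and 8.84 in N-myc high, against 9.65 and 9.13 in N-myc low. The progenitor marker Cd48 encodes a surface protein that the sorted phenotype lacks (CD48-). Its RNA was at 7.42 and 7.11 in N-myc high, against 9.89 and 9.07 in N-myc low. Cd34 and Cdk6 differed by -0.55 and -0.97. Flt3 went the other way, with 8.18 and 8.28 in N-myc high, against 7.49 and 6.56 in N-myc low. Of the macrophage markers, C1qb lay above the gene median, with 8.24 and 8.48 in N-myc high, against 5.76 and 5.64 in N-myc low (a difference of 2.66), and Mrc1 differed by 2.26. Adgre1, C1qa and C1qc differed by -0.14 to 0.32, and these and Mrc1 lay below the gene median. The part of other cells in the values below was not tested. Both arrays of mouse 1 held Xist (11.38 in N-myc high, against 11.10 in N-myc low) together with the Y-linked Eif2s3y (8.53 in N-myc high, against 8.43 in N-myc low), so it is unknown whether each comes from 1 animal. In mouse 2, Xist was at 3.84 in N-myc high, against 3.70 in N-myc low, and Eif2s3y at 9.40 in N-myc high, against 9.67 in N-myc low. The numbered mice thus also differ in their levels of genes tied to sex, and values are given per mouse throughout.

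Dnmt1 and Uhrf1 form the maintenance arm, which follows DNA replication. Dnmt1 had log2 intensities of 10.89 and 10.22 in N-myc high (mouse 1 and 2), against 10.73 and 10.55 in N-myc low. The N-myc high arrays held both the highest and the lowest value. The means were 10.55 ± 0.47 in N-myc high, against 10.64 ± 0.12 in N-myc low (SD, n = 2 each), a difference of -0.08 with a standard error (SE) of 0.29 (limma adjusted p = 0.975). Its 95% interval of -0.85 to 0.68 corresponds to N-myc high at 0.556 to 1.60 times N-myc low. The values of mouse 2 differed from those of mouse 1 by -0.42 over both fractions, more than the fractions differed.

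The 3 probe sets of Dnmt1 did not give a single picture. 1447877_x_at had 9.68 and 8.98 in N-myc high, against 9.49 and 9.32 in N-myc low, the same order of arrays as 1435122_x_at, which stood for the gene. By Affymetrix naming, _x_at marks probe sets in which some probes also match other sequences. The third, 1422946_a_at, which reads several transcripts of the gene, had 10.37 and 10.06 in N-myc high, against 10.44 and 10.51 in N-myc low. In this probe set both N-myc high arrays lay below both N-myc low arrays, with a difference of -0.26.

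Uhrf1 had 10.42 and 10.31 in N-myc high, against 10.20 and 10.59 in N-myc low. Both N-myc high values lay between the N-myc low values. The means were 10.37 ± 0.08 in N-myc high, against 10.39 ± 0.28 in N-myc low (SD, n = 2 each), a difference of -0.03 (SE 0.22, limma adjusted p = 0.995). Its interval was -0.61 to 0.55. The other probe set, 1415811_at, had 9.25 and 9.70 in N-myc high, against 9.35 and 9.71 in N-myc low, so that it separated mouse 1 from mouse 2 and not the fractions.

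The promoters of Dnmt1 and Uhrf1 are shown because both genes are known as E2F targets that are expressed with S phase, the phase whose genes are set beside them here. E2F-type letters were searched as TTTNNCGC and the MYC-type E-box as CACGTG, on both strands, in windows from 250 bases before to 50 bases after each RefSeq start (GRCm38.p6), and no match of one kind overlapped a match of the other. E2F-type letters occurred in 5.17% of all 32851 windows and the E-box in 7.15%. Among the 12 windows of the 7 genes, 3 held E2F-type letters, 1 of the 3 windows of Dnmt1 and both of Uhrf1, and 1 held an E-box. The 2 windows below lie at chr9:20952574-20952873 (minus strand, Dnmt1) and chr17:56304063-56304362 (plus strand, Uhrf1), hold 33 CG dinucleotides each against a median of 7 over all windows, and have the E2F-type letters in capitals. A match is a description of the letters and not of binding.
Dnmt1: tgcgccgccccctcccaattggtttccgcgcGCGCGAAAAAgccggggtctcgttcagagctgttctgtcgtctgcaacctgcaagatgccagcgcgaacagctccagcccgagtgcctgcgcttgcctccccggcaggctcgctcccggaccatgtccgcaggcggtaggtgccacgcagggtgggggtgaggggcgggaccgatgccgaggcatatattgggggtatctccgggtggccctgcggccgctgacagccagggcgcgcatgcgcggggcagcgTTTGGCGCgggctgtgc
Uhrf1: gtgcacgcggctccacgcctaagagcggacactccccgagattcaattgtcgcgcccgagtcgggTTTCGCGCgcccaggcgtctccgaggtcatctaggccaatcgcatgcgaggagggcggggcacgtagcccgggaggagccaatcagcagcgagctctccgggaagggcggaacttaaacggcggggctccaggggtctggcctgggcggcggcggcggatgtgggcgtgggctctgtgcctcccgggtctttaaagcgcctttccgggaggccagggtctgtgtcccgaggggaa

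Genes of S phase were measured beside these, since the maintenance arm follows replication. The 18 measured of 19 S phase genes had a median difference of -0.02, with 5 higher and 5 lower in both mice (23.2% and 29.7% of all genes), 0 past the adjusted threshold and 0 at an unadjusted limma p under 0.05. Pcna, the sliding clamp of DNA synthesis to which Dnmt1 binds, was at 11.90 and 12.01 in N-myc high, against 12.07 and 11.88 in N-myc low. Mki67, a marker of proliferating cells, was at 11.72 and 11.56 in N-myc high, against 11.78 and 11.52 in N-myc low. Both genes overlapped between the fractions, as Dnmt1 and Uhrf1 did with the probe sets that stood for them. Other S phase genes did not overlap, 3 of them higher and 4 lower in N-myc high. Of all genes, 36.4% did not overlap, in either direction. The smallest unadjusted p in the list belonged to Tyms, of thymidylate synthesis, with a difference of 0.45, then Lig1, the ligase that joins Okazaki fragments, with -0.40, and Fen1, the flap nuclease, with -0.38 (limma adjusted p = 0.793, 0.806 and 0.811). The other 3 probe sets of Tyms had -0.16, -0.12 and 0.03, so its sign depended on the probe set, while that of Fen1 had -0.31.

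Dnmt3a and Dnmt3b form the de novo arm. Dnmt3a had 9.18 and 9.002 in N-myc high, against 8.92 and 9.08 in N-myc low, and the fractions overlapped. The means were 9.09 ± 0.12 in N-myc high, against 8.998 ± 0.11 in N-myc low (SD, n = 2 each), a difference of 0.09 (SE 0.19, limma adjusted p = 0.948). Of the 7 genes Dnmt3a had the narrowest interval, -0.41 to 0.59, which corresponds to N-myc high at 0.753 to 1.51 times N-myc low. Its values spanned 0.26 over all 4 arrays.

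Dnmt3a was read by 5 probe sets, with differences from -0.26 to 0.11. The annotation gives the same sequence record for all 5, and which transcripts each reads was not tested. 1423066_at had 8.52 and 8.44 in N-myc high, against 8.18 and 8.79 in N-myc low, a difference of 0.00. 1423065_at had 7.97 and 8.04 in N-myc high, against 7.91 and 7.89 in N-myc low, with N-myc high above N-myc low in both mice by 0.06 and 0.15. 1460324_at had 7.43 and 7.52 in N-myc high, against 7.59 and 7.87 in N-myc low, and 1423063_at had 7.75 and 7.62 in N-myc high, against 8.10 and 7.73 in N-myc low. These last probe sets were lower in N-myc high in both mice, so the sign of the Dnmt3a difference depended on the probe set. Over the mean of the 5 it was -0.06 (limma adjusted p = 0.962).

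Of the 3 RefSeq windows of Dnmt3a, the one at chr12:3891494-3891793 (plus strand, GRCm38.p6) held the only E-box among the 12 windows. It is shown because the E-box, in capitals, is the letter pattern that MYC family proteins are known to bind, and the comparison is between N-myc levels. The other windows of Dnmt3a held 46 and 47 CG dinucleotides and neither pattern.
Dnmt3a: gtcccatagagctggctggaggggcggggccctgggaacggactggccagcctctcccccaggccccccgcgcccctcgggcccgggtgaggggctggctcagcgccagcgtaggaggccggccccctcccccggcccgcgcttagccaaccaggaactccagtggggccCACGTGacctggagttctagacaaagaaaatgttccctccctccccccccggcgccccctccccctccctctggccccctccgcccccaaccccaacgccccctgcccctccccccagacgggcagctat

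Dnmt3b had 9.75 and 9.37 in N-myc high, against 9.69 and 10.42 in N-myc low. The array of N-myc low mouse 2 stood above the other 3, which lay between 9.37 and 9.75. The means were 9.56 ± 0.27 in N-myc high, against 10.06 ± 0.51 in N-myc low (SD, n = 2 each), a difference of -0.49 (SE 0.32, limma adjusted p = 0.826) and an interval of -1.35 to 0.36. The difference was 0.06 in mouse 1 and -1.05 in mouse 2, and with N-myc low mouse 2 left out it was -0.13, while with N-myc low mouse 1 left out it was -0.86. The bioB and bioC hybridisation controls also had their highest mean in N-myc low mouse 2, with 10.67 and 10.62 in N-myc high, against 10.84 and 11.51 in N-myc low. The bioD and cre controls did too, with 13.26 and 13.22 in N-myc high, against 13.3 and 13.61 in N-myc low. What these control levels mean for the values of Dnmt3b or of the other genes in that array was not tested.

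The other probe set of Dnmt3b, 1418351_a_at, did not have this pattern. It had 7.60 and 8.55 in N-myc high, against 8.38 and 8.42 in N-myc low, and here N-myc high mouse 1 stood below the other 3 arrays. Its difference was -0.78 in mouse 1 and 0.13 in mouse 2, so the probe sets of Dnmt3b located their difference in different mice. The RefSeq table also lists Dnmt3b-ps1, known as Dnmt3c, a copy of Dnmt3b on the same chromosome, and whether the probe sets read it was not tested.

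**Figure D2:**
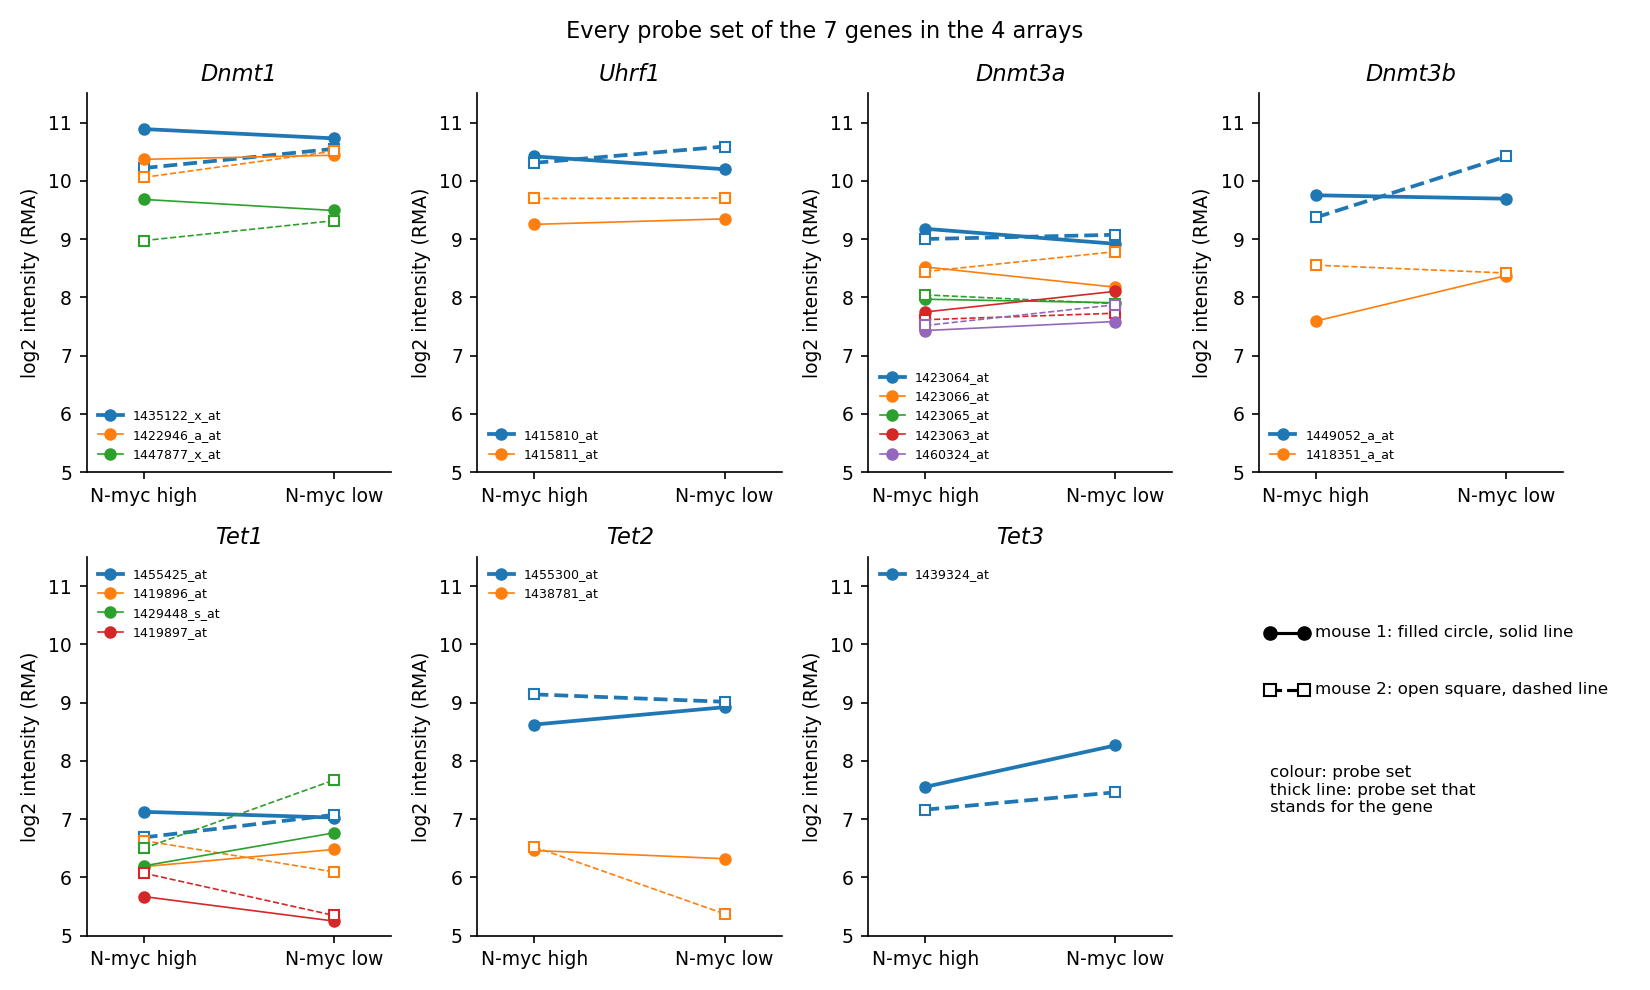
Log2 intensity after RMA (vertical axis) of every probe set of the 7 genes in N-myc high (left) and N-myc low HSCs (right of each panel). Lines join the fractions of mouse 1 (filled circles) and mouse 2 (open squares), colours are probe sets, and the thick line is the probe set that stands for the gene; lines of the same gene slope both ways for every gene but Tet3.

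Of the 3 Tet genes, Tet2 is the one best known in HSCs. Its brighter probe set, 1455300_at, had 8.62 and 9.14 in N-myc high, against 8.92 and 9.01 in N-myc low, and both N-myc low values lay between the N-myc high values. The means were 8.88 ± 0.37 in N-myc high, against 8.97 ± 0.07 in N-myc low (SD, n = 2 each), a difference of -0.09 (SE 0.25, limma adjusted p = 0.970) and an interval of -0.74 to 0.57. The dimmer probe set, 1438781_at, had 6.46 and 6.52 in N-myc high, against 6.32 and 5.37 in N-myc low. There N-myc high lay above N-myc low in both mice, by 0.14 and 1.15, and the value of N-myc low mouse 2 made most of the difference of 0.64. Over the mean of both probe sets the Tet2 difference was 0.28 (limma adjusted p = 0.843), the opposite sign of the brighter probe set.

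Tet1 had 7.13 and 6.69 in N-myc high, against 7.03 and 7.07 in N-myc low with 1455425_at. The N-myc high values lay on either side of the N-myc low values. The means were 6.91 ± 0.31 in N-myc high, against 7.05 ± 0.03 in N-myc low (SD, n = 2 each), a difference of -0.14 (SE 0.23, limma adjusted p = 0.930) and an interval of -0.75 to 0.46. Tet1 lay nearest to the median level among the 7 genes, with 58.7% of all genes at a lower mean.

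The other 3 probe sets of Tet1 included the difference furthest below 0 of all 19 probe sets. 1429448_s_at had 6.20 and 6.50 in N-myc high, against 6.76 and 7.67 in N-myc low, a difference of -0.87, with both N-myc high arrays below both N-myc low arrays. 1419897_at had 5.67 and 6.07 in N-myc high, against 5.25 and 5.35 in N-myc low, a difference of 0.57, with both N-myc high arrays above. So 2 probe sets annotated to the same gene separated the fractions in opposite directions, at unadjusted p of 0.0750 and 0.0587 in the limma fit over all probe sets (adjusted p = 0.794 and 0.786). By Affymetrix naming, _s_at marks probe sets that match several transcripts, which may come from different genes. Which transcripts each probe set reads was not tested. 1419896_at, annotated to the same sequence record as 1419897_at, had 6.19 and 6.63 in N-myc high, against 6.48 and 6.10 in N-myc low and overlapped.

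Tet3, the family member known for oxidising the paternal genome in the mouse zygote, had 7.55 and 7.16 in N-myc high, against 8.27 and 7.46 in N-myc low. N-myc low mouse 1 was the highest array, and N-myc high mouse 1 lay above N-myc low mouse 2, so the groups overlapped although N-myc high was lower within each mouse. The means were 7.36 ± 0.28 in N-myc high, against 7.86 ± 0.57 in N-myc low (SD, n = 2 each), a difference of -0.51 (SE 0.34, limma adjusted p = 0.827) and an interval of -1.42 to 0.41. The difference was -0.71 in mouse 1 and -0.30 in mouse 2, while mouse 2 differed from mouse 1 by -0.60 over both fractions. With N-myc low mouse 1 left out the value was -0.10, and with N-myc low mouse 2 left out it was -0.91. Leaving out 1 array breaks the pairing, so these values also hold part of the difference between the mice. With the mouse as a block the SE was 0.22, at an unadjusted limma p of 0.0947 (adjusted p = 0.781). Of all genes, 16.3% had a difference further from 0 than that of Tet3. Tet3 has 1 probe set, and no second reading stands beside it.

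**Figure D3:**
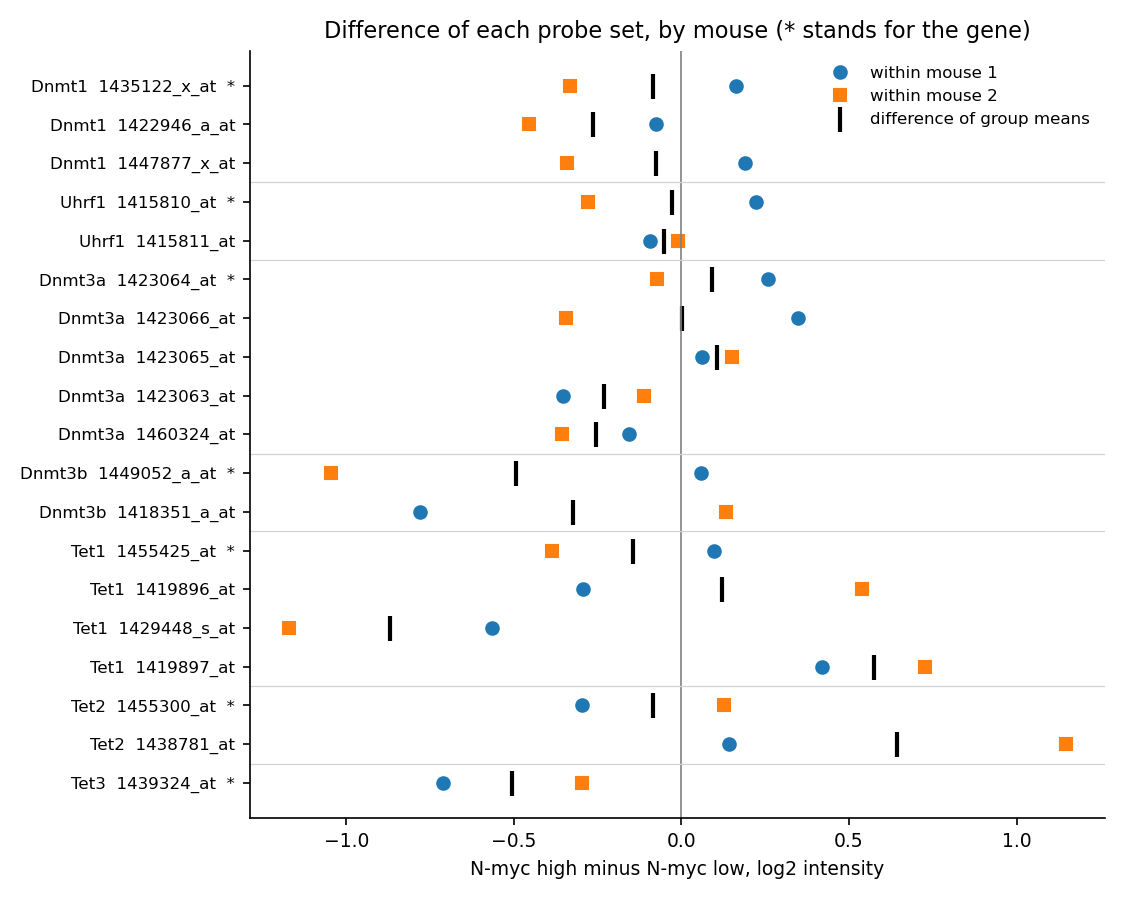
Difference between the N-myc high and N-myc low fractions in log2 intensity (horizontal axis) for each of the 19 probe sets, within mouse 1 (circles), within mouse 2 (squares) and between the group means (bars). Probe sets of Dnmt3a, Tet1 and Tet2 have means on both sides of 0, and the means run from -0.87 to 0.64, both ends in Tet genes.

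Over the 19 probe sets, 13 had a difference below 0 and 6 above 0, with a median of -0.08 against -0.05 over all probe sets. In 3 of the 19 every N-myc high value exceeded every N-myc low value (Dnmt3a, Tet1 and Tet2), which held for 14.4% of all probe sets. The reverse held for 3 of the 19 (Dnmt1, Dnmt3a and Tet1) and for 22.1% of all probe sets. At an unadjusted limma p under 0.05 the count was 0 of 19, against 6.37% of all probe sets, and 0 passed the adjusted threshold (0% of all). Of the 6 genes with several probe sets, 3 had probe sets of both signs, and so did 58.5% of all genes with several probe sets.

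For 5 of the 7 genes, Dnmt1, Uhrf1, Tet1, Tet2 and Tet3, mouse 2 differed from mouse 1 over both fractions by more than N-myc high differed from N-myc low, as held for 47% of all genes. For Dnmt3a and Dnmt3b the difference of mouse 2 from mouse 1 was -0.01 and 0.17. The difference between the mice was not tested, and its relation to the Xist and Eif2s3y levels was not tested.

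The genes whose pattern over the 4 arrays lay closest to a member were found by the root mean square distance between centred log2 values, for members that spanned at least 0.5, among 9097 genes at or above the median level. They were Phrf1 and Top3b for Dnmt1 (distances 0.018 and 0.025), Hnrnpll and 4930503L19Rik for Dnmt3b (0.022 and 0.034), Esrp2 and Oas1e for Tet2 (0.015 and 0.019), and Jdp2 and B4galt7 for Tet3 (0.024 and 0.052). A pattern over 4 arrays is shared by many genes: 132 genes lay within 0.1 of Dnmt1, 39 of Dnmt3b, 175 of Tet2 and 37 of Tet3.

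Proteins that guide, read or stabilise the methylation machinery were measured in 17 of 18 genes. Their median difference was 0.19, against -0.03 over all genes, with -0.03 in mouse 1 and 0.17 in mouse 2, and it was -0.21 over the mean of each gene's probe sets. At an unadjusted limma p under 0.05, 1 gene was higher and 1 lower, where 3.53% and 2.78% of all genes were, and 0 passed the adjusted threshold. The lower one was Uhrf2, the paralog of Uhrf1, with 7.47 and 7.52 in N-myc high, against 8.07 and 8.43 in N-myc low. The fractions of Uhrf2 did not overlap, with a difference of -0.76 (SE 0.21, limma adjusted p = 0.769). Its other probe set, with 5.998 and 6.397 in N-myc high, against 6.49 and 6.99 in N-myc low, also had both N-myc high arrays below both N-myc low arrays.

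The higher one was Usp7, a deubiquitinase known to bind Dnmt1 and Uhrf1, with 10.78 and 10.90 in N-myc high, against 10.13 and 10.27 in N-myc low, a difference of 0.64 (SE 0.18, limma adjusted p = 0.769). Its 7 probe sets ran from -0.49 to 0.85, so its sign depended on the probe set. Zbtb4, which binds methylated DNA, had a difference of 0.73 (limma adjusted p = 0.791), and its other 3 probe sets ran from -0.19 to 0.67. Hells, a remodeller needed for methylation of repeats, had 0.19 with opposite signs in the mice. Its other probe sets had -0.75 and -1.11, and in the last both N-myc high arrays lay below both N-myc low arrays. Dnmt3l, a partner of the de novo enzymes in germ cells, had -0.61 at a level below the gene median, with -1.32 in mouse 1 and 0.11 in mouse 2. N-myc low mouse 1 stood apart there, with 4.74 and 4.58 in N-myc high, against 6.07 and 4.47 in N-myc low. The methyl-CpG binding gene Mbd2 had -0.06. Its other probe set had 8.50 and 8.39 in N-myc high, against 9.04 and 9.16 in N-myc low, a difference of -0.65 with no overlap.

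Partners of the Tet enzymes, enzymes of base excision and metabolic enzymes linked to their cofactor 2-oxoglutarate were measured in 23 of 27 genes. Tdg was among those not analysed here. The median difference was 0.06, with 5 genes higher and 5 lower in both mice, beside the same 23.2% and 29.7% of all genes, and 0 genes had an unadjusted limma p under 0.05. The smallest p belonged to Gadd45b, a stress gene linked to active demethylation, with -0.75, then Sdhb, of succinate dehydrogenase, with 0.52, and Cxxc5, a partner of Tet2, with 0.33 (limma adjusted p = 0.779, 0.793 and 0.806). The other probe sets of Gadd45b had -0.64 and 0.15, and that of Cxxc5 had 0.13. The isocitrate dehydrogenase genes Idh1 and Idh2 had 0.15 and -0.13, and their other probe sets 0.27 and 0.31, so the sign of Idh2 depended on the probe set. Ogt, the O-GlcNAc transferase that binds Tet2 and Tet3, had -0.11, and its other 4 probe sets ran from -0.07 to 0.02.

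Genes of the supply and turnover of the methyl donor S-adenosylmethionine, 10 of 12 measured, had a median difference of 0.03. At an unadjusted limma p under 0.05, 1 gene was higher and 0 lower, where 3.53% and 2.78% of all genes were, and 0 passed the adjusted threshold. The one was Mtrr, which reactivates methionine synthase, with 5.39 and 5.48 in N-myc high, against 4.52 and 4.67 in N-myc low, a difference of 0.84 (SE 0.18, limma adjusted p = 0.763) at a level below the gene median. Mtr, methionine synthase itself, had 0.36 and Shmt1, of the folate cycle, had -0.36 (limma adjusted p = 0.806 and 0.811). The other probe set of Mtr had 0.15, and the other 3 of Shmt1 ran from -0.59 to -0.17.

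**Figure D4:**
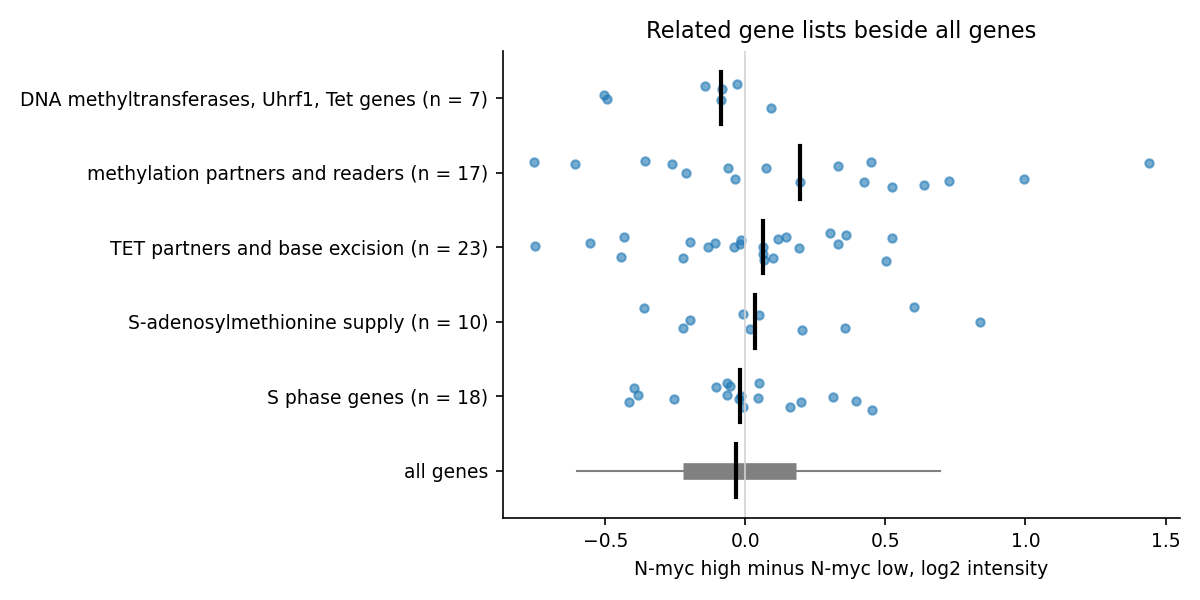
Difference between the N-myc high and N-myc low fractions in log2 intensity (horizontal axis) for each gene (points) of the 7 methylation genes and of the related lists, with the median of each as a black bar. The lowest row gives all 18193 genes, with their median, the range from the 25th to the 75th percentile (thick, -0.22 to 0.18) and from the 5th to the 95th (thin, -0.60 to 0.70); the list medians lie between -0.09 and 0.19.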

How the data were processed

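RNA of 4 sorted HSC samples was measured, 2 N-myc high and 2 N-myc low. NuGEN Ovation reagents served to amplify 5 ng of RNA a sample and to label it with biotin, per the labels' protocols. The authors deposited log2 intensities made with RMA; the submitters' processing notes name RMA, affy and limma and no version. RMA normalises arrays by quantiles, so a change common to all transcripts is lost. Build and chip definition are not stated there. The files hold no detection calls. The number of arrays limits the precision.

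Of 45101 probe sets, 64 were controls, 34945 carried 1 gene name, 932 several and 9160 were unnamed here. A RefSeq table (GRCm38.p6) held the Entrez numbers of 34741, with 0 symbols changed. The probe set with the highest mean stood for a gene, with no filter on dim genes. N-myc high was compared with N-myc low by lmFit and eBayes of limma 3.58.1 (R 4.3.3) over all 18193 genes, with Benjamini-Hochberg adjustment, and over all 45037 probe sets; intervals are 95% limits of the moderated fit. The code was tested on simulated data.

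The labels number the mice, and same-numbered arrays were treated as the same mouse, as labelled; across genes their deviations from the group means correlated at 0.0492. The main fit held no mouse term; the mouse as a block, leaving out each array, other probe set rules, scalings and a variance trend were alternatives. The genes and the 4 related lists (76 entries, 68 measured with 1 gene name) were chosen with earlier results of these data known. From each list the 3 genes with the smallest p were named, with 8 more measured genes fixed by name. RefSeq promoter windows were found for all 7 genes; promoters and motifs for display were chosen after the values were seen.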

Additional observations from a re-analysis of the deposited data

How the results depend on the processing

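For each of the 7 genes, 12 alternatives were run. The differences within mouse 1 alone and within mouse 2 alone carried no test. In none of the others did a gene pass the adjusted threshold. The sign held in all 12 alternatives for Tet3 only. The mouse block, the fit over every probe set, the fit without the dimmer genes and the variance trend leave each gene's difference unchanged. The sign could not turn there for any gene. Nor could the mean of a gene's probe sets turn it for Tet3, which has 1 probe set. Leaving out 1 array at a time, the difference ran from -0.42 to 0.25 for Dnmt1, -0.22 to 0.17 for Uhrf1, 0.00 to 0.18 for Dnmt3a, -0.86 to -0.13 for Dnmt3b, -0.36 to 0.076 for Tet1, -0.34 to 0.17 for Tet2 and -0.91 to -0.10 for Tet3. Within mouse 1 alone the sign turned for Dnmt1 (0.16), Uhrf1 (0.22), Dnmt3b (0.059) and Tet1 (0.099), and within mouse 2 alone for Dnmt3a (-0.074) and Tet2 (0.13). With the mean of a gene's probe sets it turned for Dnmt3a (-0.058) and Tet2 (0.28). With each array minus its median it turned for Uhrf1 (0.00098). The cause of these turns was not tested, beyond the choice of arrays or probe sets itself.

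The count of genes past the adjusted threshold was 0 in every alternative. At an unadjusted limma p under 0.05 it was 1148 genes, against 2870 over every probe set and 606 without the genes below the median level, where more and fewer features were tested, and 795 to 1512 with 1 array left out. Of the 7 genes, 0 had such a p, and 0 to 1 with 1 array left out: Dnmt3b without N-myc low mouse 1 (limma adjusted p = 0.594) and Tet3 without N-myc low mouse 2 (limma adjusted p = 0.717). With the mouse as a replicate block, 0 genes passed the adjusted threshold, 1098 had an unadjusted p under 0.05 and no call of a member changed. An alternative added after seeing the data, the block over every probe set, gave 1 of the 19 probe sets. It was 1429448_s_at of Tet1, at an unadjusted limma p of 0.0407. The share of all probe sets under 0.05 in that fit was not counted. Without the block it was 6.37%. Of 40 alternative medians of the lists, 13 moved by more than the spread between the mice. With 2 arrays a group, the end furthest from 0 of a gene's 95% interval lay between 0.59 (Dnmt3a) and -1.42 (Tet3) on the log2 scale, and differences of that size are allowed by the fit.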
